A study of Mus musculus with 3 samples.

Results

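Macrophage-gated cells came from 3 mouse R26-SHH rhabdoid brain tumours and were chosen by the genes in which each cell had a UMI, a count of a distinct captured RNA molecule. A cell entered when at most 15% of its UMIs were mitochondrial and it had UMIs in 3 or more of 6 immune genes (C1qa, C1qb, C1qc, Tyrobp, Fcer1g and Ctss, hereafter the immune gate). It also needed UMIs in 2 or more of 5 macrophage genes (Lyz2, Cd52, Ms4a7, Ms4a6c and Ccr2) and no UMI of 5 microglia genes (P2ry12, Tmem119, Cx3cr1, Fcrls and Siglech). The rule gave 93 cells, 45 in tumour 1, 22 in tumour 2 and 26 in tumour 3, of 2672 cells that passed the immune gate and of 21666 cells within the mitochondrial limit. They were compared with 1618 microglia-gated cells (830, 597 and 191), which passed the immune gate and had UMIs in 2 or more of the microglia genes.

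The tumours grew in 3 different mice of genotype Rosa26-CreERT2::Smarcb1flox/flox, in which tamoxifen activates a Cre recombinase made from the ubiquitous Rosa26 locus. Its target is Smarcb1, flanked by loxP sites, which encodes a core component of SWI/SNF, a complex that moves nucleosomes. All 3 tumours belong to the 1 group, with no control animals, the Cre was not restricted to a cell type, and the labels give neither age nor treatment for single animals. The dissociated tumours were loaded without sorting on a droplet platform that counts the 3′ ends of transcripts. Tumours 1, 2 and 3 gave 12467, 9485 and 6428 barcodes with 79529921, 40151353 and 67645602 UMIs, and pairs of tumours shared 22 to 42 barcodes, none of them among the macrophage-gated cells.

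Microglia are the resident macrophages of the brain parenchyma. They are seeded by yolk sac progenitors and are marked by genes such as P2ry12, a nucleotide receptor, and Tmem119. Macrophages that arise from blood monocytes carry Lyz2 (lysozyme), Ccr2 (the receptor that brings monocytes into tissue) and S100 proteins, while both lineages share complement C1q, the adaptor Tyrobp and the protease cathepsin S (Ctss). Dendritic cells, which present antigen to T cells, carry high levels of MHC class II genes, and activated macrophages can raise them too.

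Class II genes marked 1 of the sets of members, and their promoters are shown because these genes varied together from cell to cell. The classical class II promoters share a Y box, which is an inverted CCAAT motif bound by NF-Y. The letters ATTGG, or CCAAT on the other strand, were searched in the 300 bases from 250 before to 50 after each start site in RefSeq (GRCm38.p6), and 37.4% of 32851 such promoters held them. Of the 3 genes looked for, H2-Aa and H2-Eb1 matched an entry and H2-Ab1 is named only. The sequences read 5′ to 3′ on the strand of the gene, with the matches in capitals. H2-Aa lies on the minus strand at chr17:34287774-34288073 and H2-Eb1 on the plus strand at chr17:34305617-34305916.
H2-Aa: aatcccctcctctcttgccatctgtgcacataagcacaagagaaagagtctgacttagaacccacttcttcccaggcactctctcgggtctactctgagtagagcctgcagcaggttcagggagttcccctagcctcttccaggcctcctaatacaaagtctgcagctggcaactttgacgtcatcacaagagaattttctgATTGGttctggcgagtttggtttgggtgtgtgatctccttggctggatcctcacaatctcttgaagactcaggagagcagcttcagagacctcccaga
H2-Eb1: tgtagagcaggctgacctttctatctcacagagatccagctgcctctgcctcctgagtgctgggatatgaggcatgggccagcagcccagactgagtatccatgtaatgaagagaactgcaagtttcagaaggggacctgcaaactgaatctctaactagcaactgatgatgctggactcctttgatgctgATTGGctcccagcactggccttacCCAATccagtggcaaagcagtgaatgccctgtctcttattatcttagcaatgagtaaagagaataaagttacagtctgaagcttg
The match begins 48 bases before the start site in H2-Aa and 59 bases before it in H2-Eb1, which holds another match 35 bases before it. A match of 5 letters is a description of the sequence and not a measured site.

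The label of macrophages lacking microglia genes was borne out only in part. The rule fixed the absence of the 5 microglia genes, but other microglia genes were present. With each cell thinned to 500 UMIs, Trem2 was seen in 22.2, 18.2 and 23.1% of members in tumours 1, 2 and 3, against 49.6, 47.2 and 46.1% of microglia-gated cells and 0.342, 1.34 and 0.227% of neural-marker cells, which are cells outside the immune gate with 3 or more genes of a neural and tumour list. Of the markers of macrophages at the borders of the brain, the mannose receptor Mrc1 had 0 UMIs in the 45, 22 and 26 cells, which allows up to 7.87, 15.4 and 13.2% of cells with a UMI (95% exact binomial). Of the border list as a whole, 24 cells had a UMI, and Pf4, a platelet and border macrophage chemokine, had 9 UMIs in 3 cells of tumour 2, of which 6 lay in a cell with UMIs of 5 border genes. Ccr2 was seen in 2 cells, 1 in tumour 1 and 1 in tumour 2. The cells are therefore called macrophage-gated by their rule and not by a lineage.

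The 16 genes of the gates chose the cells, so their levels are given as a description with no test. In CPM, the UMIs of a gene per 1000000 UMIs of the summed cells, C1qa stood at 1475, 1423 and 947 in macrophage-gated cells of tumours 1, 2 and 3, against 4990, 3958 and 5048 in microglia-gated cells. Tyrobp stood at 2155, 1423 and 766 CPM against 3220, 2721 and 2762. Both genes of the shared immune gate were thus lower in the macrophage-gated sums of all 3 tumours. Lyz2, which the rule asked for, was not higher throughout, at 1687, 2343 and 1721 CPM in macrophage-gated cells and 1357, 954 and 4302 in microglia-gated cells. Ms4a7, a membrane protein of the MS4A family, gave 124, 52.1 and 189 CPM against 62.9, 30.1 and 284. In these sums Lyz2 and Ms4a7 were higher in the macrophage-gated cells of tumours 1 and 2 and higher in the microglia-gated cells of tumour 3. The deepest 2 members of tumour 3 held 77.2% of its macrophage-gated UMIs. With each cell thinned to 500 UMIs, Ms4a7 was seen there in 26.9% of members and 13.1% of microglia-gated cells, and Lyz2 in 69.2 and 63.9%. In tumour 2 thinned Lyz2 went the other way, at 27.3 and 31.5%.

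Most members met the macrophage side of the rule with the 2 genes Lyz2 and Cd52 alone, as 55 of 93 cells did. A total of 69 cells had exactly 2 of the 5 macrophage genes, 15 had 3 and 9 had 4. Tumour 3 differed in this respect, with 15 of its 26 cells holding 3 or more of the genes, against 6 of 45 in tumour 1 and 3 of 22 in tumour 2. This was not particular to the members. At 500 UMIs per cell, Ms4a7 was seen in 13.1% of microglia-gated cells of tumour 3, against 1.81 and 1.34% in tumours 1 and 2. Ms4a6c was seen in 13.6% against 3.86 and 2.51%, Lyz2 in 63.9% against 44.2 and 31.5%, and Cd52 in 37.7% against 37.2 and 27.3%. Just outside the rule stood 161 cells with no microglia gene and 1 macrophage gene, and 172 cells with 1 microglia gene and 2 or more macrophage genes. Trem2, a lipid receptor of microglia, stood at 159 and 503 CPM in these neighbours, summed over the tumours. In cells with 2 or more macrophage genes it stood at 503 CPM with 1 microglia gene, 910 with 2 and 1491 with all 5, while their median depth went from 1380 to 2081 and 10958 UMIs.

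Depth separated the classes. Macrophage-gated cells held a median of 1149, 1491.5 and 1027 UMIs in tumours 1, 2 and 3, and microglia-gated cells 7168, 6910 and 7526, which is 6.24, 4.63 and 7.33 times as many. A total of 78 of the 93 cells had under 3000 UMIs, and the macrophage-gated sums held 113248, 57608 and 121433 UMIs against 6758606, 4453586 and 2670486. A gene is missed more often in a shallow cell, so the absence of 5 genes is easier to meet there. When microglia-gated cells of 1000 or more UMIs were thinned to 1000 UMIs and gated again, 46 of 749 still immune-gated cells in tumour 1, 36 of 547 in tumour 2 and 9 of 173 in tumour 3 had no UMI of the 5 microglia genes. Of the still immune-gated cells, 16, 8 and 4 (2.14, 1.46 and 2.31%) passed the whole macrophage rule.

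Macrophage-gated cells made up 3.48, 2.13 and 7.49% of immune-gated cells in tumours 1, 2 and 3, with 95% exact binomial intervals of 2.55 to 4.63, 1.34 to 3.21 and 4.95 to 10.8%. The mean was 4.37% ± 2.79 (SD, n = 3). These intervals cover counting error only. The share followed depth, and over the 3 tumours it was 8.53% of immune-gated cells with 500 to under 1000 UMIs, 6.81% from there to 2000, 2.60% to 4000, 1.02% to 8000 and 0.890% with 8000 or more. Microglia-gated cells went the other way, from 15.6% in the shallowest range to 79.5% in the deepest. Among cells of at least 3000 UMIs the macrophage-gated share was 0.880, 0.891 and 1.84%, which rests on 6, 6 and 3 cells. Tumour 3 had the highest share in 4 of the 5 ranges, at 17.3, 12.9 and 3.70% in the 3 shallowest and 1.57% in the deepest, and from 4000 to 8000 UMIs it had 0 of 21 cells (exact upper bound 16.1%).

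**Figure D1:**
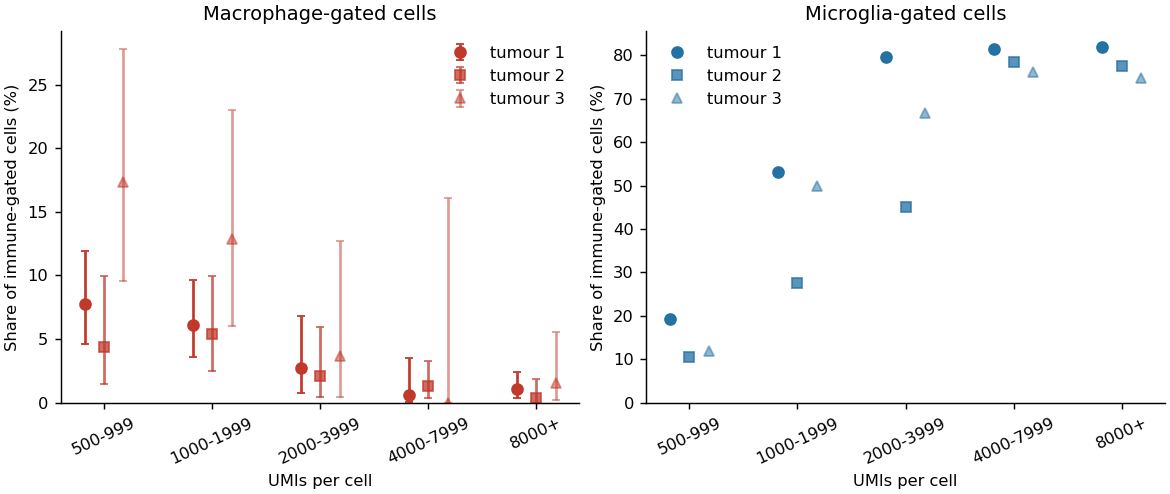
Share of immune-gated cells (%) that were macrophage-gated (left, bars are 95% exact binomial intervals) or microglia-gated (right) by range of UMIs per cell, with 1 point per tumour. The macrophage-gated share is highest in the shallow ranges of every tumour, reaching 17.3% in tumour 3, and the microglia-gated share is at least 74.8% in all 3 tumours from 4000 UMIs upwards.

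RNA that is free in the droplets can put immune UMIs into other cells. The gate genes cannot test this, since the rule chose members on them and neural-marker cells had to fail the immune gate. Their levels are given as a description. After thinning each cell to 500 UMIs, C1qa was seen in 1.22, 2.73 and 0.649% of neural-marker cells, and in 29 of 45, 11 of 22 and 18 of 26 macrophage-gated cells. Lyz2 was seen in 0.328, 1.17 and 0.940% against 75.6, 27.3 and 69.2%. The median depths before thinning were 8384, 4305 and 17678 UMIs in neural-marker cells, where the unthinned C1qa shares were 7.82, 10.5 and 8.59%, against 88.9, 81.8 and 80.8% in members. Cells with endothelial markers, also outside the immune gate, had median depths of 2405, 1633.5 and 1010 UMIs. After thinning to 500 UMIs, C1qa was seen in 1.37, 1.43 and 5.05% of them. Some members had few immune UMIs for their depth, as given next.

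The 93 cells fell into unlike sets, which were drawn after their values had been seen and carry no test. A first set of 5 cells had the 6 immune genes together under 2000 CPM with few class II UMIs, and these cells held 36.3% of all macrophage-gated UMIs. The deepest, in tumour 3, had 64948 UMIs, 53.5% of the macrophage-gated sum of that tumour, with 3 UMIs over the 6 immune genes (46.2 CPM) and 80 UMIs of Sox2, a neural stem cell factor. In tumour 1, a cell of 17580 UMIs had 35 UMIs of Sox2, and another of 16087 UMIs had 31 UMIs of the collagen gene Col3a1 and 132 of Vim (vimentin). Scrublet, a doublet caller, marked none of these 5 cells at a fixed rate, and marked 10 of the 93 cells in all.

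A further 6 cells gave 1% or more of their UMIs to the 11 class II genes listed, 2 in tumour 1 and 4 in tumour 3. The deeper pair, 10918 UMIs in tumour 1 and 28764 in tumour 3, had 176 and 294 UMIs of H2-Aa and 255 and 660 of Cd74, the class II invariant chain. These 2 cells had no UMI of C1qa, C1qb, C1qc, Apoe or Lyz2, and entered through Tyrobp, Fcer1g and Ctss with Cd52 and Ms4a6c. The cell of 28764 UMIs also had its immune genes under 2000 CPM, at 1147. They had UMIs in 7 of the 15 dendritic genes listed, among them 2 and 5 UMIs of Flt3, a growth factor receptor of dendritic cells, and 5 and 61 UMIs of Ccr7, which guides dendritic cells to lymph nodes. The other 4 cells had 607 to 3039 UMIs with 3 to 15 UMIs of H2-Aa, and all of them had UMIs of Apoe and Lyz2. The deeper pair thus lacked the complement genes that the shallower 4 carried.

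Another 3 cells had a UMI of Ly6c2, a surface protein of inflammatory monocytes, or of Ccr2, with 2829 UMIs in tumour 1 and with 3751 and 10099 in tumour 2. They had UMIs in 21 or 22 of the 31 monocyte genes listed. Lyz2 gave 81, 27 and 73 UMIs in them, and Chil3, a chitinase-like protein of monocytes, gave 5, 29 and 100 UMIs and was seen in no other member. Class II genes gave 1 UMI over the 3 cells. Scrublet marked the cell of 10099 UMIs.

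**Figure D2:**
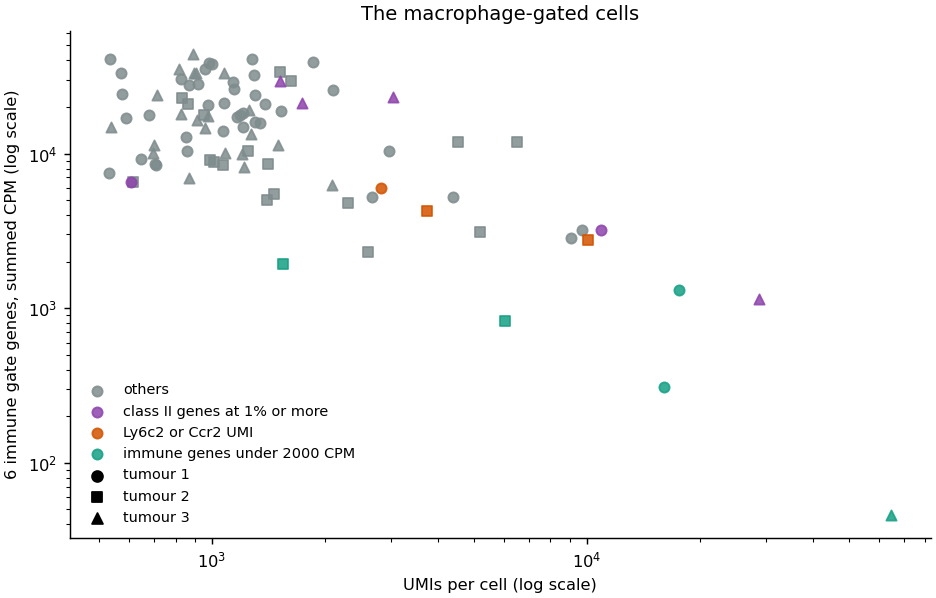
Each of the 93 macrophage-gated cells by its UMIs (x, log scale) and by the CPM of the 6 immune gate genes together (y, log scale), coloured by the set drawn after seeing the values and shaped by tumour. Most cells sit at the upper left with about 1000 UMIs, and the cell of 64948 UMIs at the lower right has 46.2 CPM.

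The remaining 79 cells, 40, 18 and 21 by tumour, were the typical members, with a median of 1077 UMIs, and Apoe, an apolipoprotein raised in activated microglia and macrophages, was seen in all of them. Scrublet marked 9 of them. Among the typical cells, 3 of tumour 1 had 4388 to 9702 UMIs with 21, 106 and 79 UMIs of the neural and tumour list and no UMI of Csf1r. The levels are therefore given for typical cells under 3000 UMIs (37, 15 and 21 cells) beside microglia-gated cells under 3000 UMIs. This limit also left out 3 cells of tumour 2, of 4543, 5178 and 6530 UMIs, with immune genes at 11886, 3090 and 11792 CPM. Median depths were 1073, 1252 and 913 UMIs against 1515, 1753.5 and 1777. Trem2 stood at 856, 803 and 747 CPM against 1682, 1312 and 1677. Csf1r, the receptor for the growth factor on which microglia depend, stood at 404, 502 and 280 CPM against 843, 994 and 595, and at 261, 332 and 280 CPM with the deeper typical cells. Of the immune gate, C1qa stood at 3543, 3062 and 3594 CPM against 5631, 4552 and 6448. These 3 genes were thus present at lower levels in all 3 tumours, but Tyrobp, also of the immune gate, stood at 4731, 1656 and 2567 CPM against 4562, 3253 and 3910 and was higher in tumour 1. Ms4a7 went the other way, at 285, 151 and 607 CPM against 6.90, 6.76 and 251, but the rule favours it. Among neural genes, Sox11 stood at 333, 803 and 420 CPM against 329, 406 and 149, and Sox2 at 143, 50.2 and 46.7 against 43.7, 47.3 and 70.5, so Sox2 was lower in tumour 3.

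**Figure D3:**
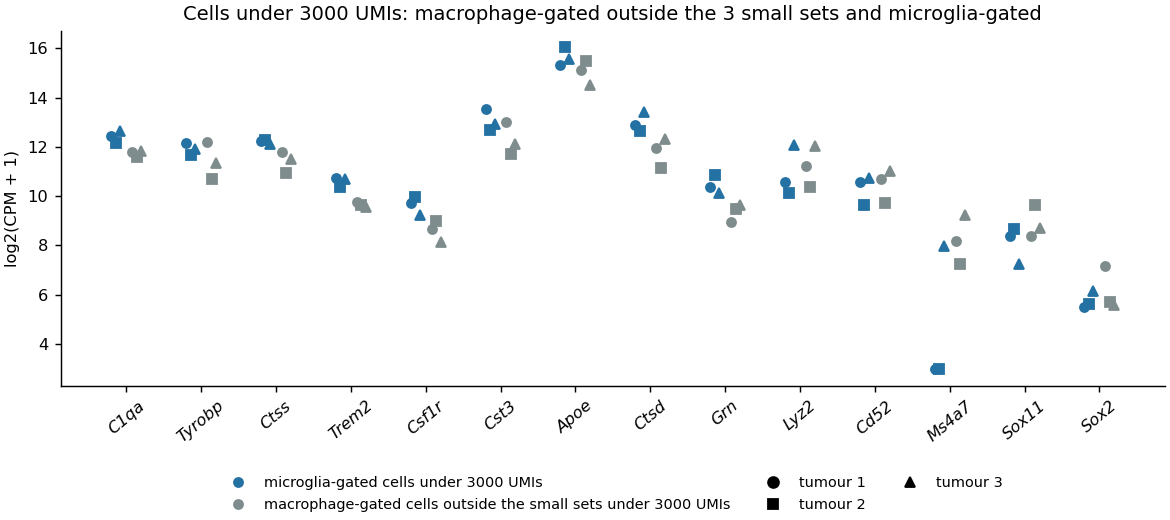
Levels as log2(CPM + 1) of 14 genes in the sums of macrophage-gated cells outside the 3 small sets (grey) and of microglia-gated cells (blue), both under 3000 UMIs, 1 point per tumour. Trem2, Csf1r and C1qa are lower in the grey points of all 3 tumours, Ms4a7 is higher, and the values are a description with no test.

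The sums of all 93 cells were compared with those of the microglia-gated cells by edgeR with the tumour as a block, over 9631 genes outside the gates. A total of 991 genes passed an adjusted p of 0.05, 10.3% of those tested, of which 236 (2.45%) were higher and 755 (7.84%) lower in macrophage-gated cells. The median log2 difference of all tested genes was -0.12. The genes tested took no part in the rule, but they come from the cells that the rule chose, so each call describes these sums and not an independent sample. A few deep cells fill the sums, and 110 of the 236 higher genes had 50% or more of their macrophage-gated UMIs in a single cell.

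The same comparison was made with every cell thinned to 500 UMIs, which gives each cell the same weight and leaves 779 genes to test. It called 87 genes (11.2%), 21 higher (2.70%) and 66 lower (8.47%). Of these, 74 were called in the full sums too, all with the same sign. Without the 6 members, and the microglia-gated cells, whose immune genes stayed under 2000 CPM, 369 of 8759 genes were called (4.21%), 41 higher (0.468%) and 328 lower (3.74%), among them 37 of the 236 higher genes and 308 of the 755 lower genes. DESeq2 called 403 of the 9631 genes (4.18%), 81 higher (0.841%) and 322 lower (3.34%), and all 403 were among the 991.

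Fewer genes were called, of fewer genes tested, with other cells in the comparison, and the cause was not tested. Against microglia-gated cells matched for depth, 153 of 1716 genes were called (8.92%), 33 higher (1.92%) and 120 lower (6.99%). A tumour entered a test only with 20 or more cells in both classes. With both classes held under 3000 UMIs, tumour 2 had 16 members and was left out. In tumours 1 and 3, 35 of 1124 genes were called (3.11%), 4 higher (0.356%) and 31 lower (2.76%). Against the microglia-gated cells with fewer than 2 macrophage genes, tumour 3 had 19 such cells and was left out. In tumours 1 and 2, 12 of 5646 genes were called (0.213%), 10 higher (0.177%) and 2 lower (0.0354%). S100a4 was higher in each of these comparisons that tested it, whereas Trem2, Csf1r, Grn and Ccl3 did not pass in the last, with log2 differences of -0.63, -1.67, -1.19 and -1.82.

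Monocyte genes were the list with the most higher genes. Of 31 genes listed, 23 were tested, 15 were higher and none lower, with a median log2 difference of 1.55, and 9 of 22 were higher without the cells poor in immune genes. Without the tumour block 6 of 23 were higher. At 500 UMIs per cell the list took 0.307, 0.436 and 0.338% of UMIs in members and 0.116, 0.126 and 0.176% in microglia-gated cells, but also 0.241, 0.185 and 0.254% in neural-marker cells and 0.636, 0.543 and 0.628% in cells with endothelial markers, so its level is not particular to the members. S100a4, a calcium-binding protein of motile and inflammatory cells at chr3:90603771-90606045, had 31, 30 and 32 UMIs in the macrophage-gated cells of tumours 1, 2 and 3, or 274, 521 and 264 CPM, against 5.92, 8.53 and 24.7 CPM in microglia-gated cells. The groups did not overlap, and the log2 difference was 4.67 ± 0.35 (SE, edgeR adjusted p = 1.7e-35). The UMIs came from 7 cells, and 91 of the 93 UMIs lay in the class II and Ly6c2 or Ccr2 sets, which together hold 9 cells. In the 79 typical cells S100a4 had 15.3, 0 and 46.7 CPM.

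S100a6, its neighbour on chromosome 3, had 477, 729 and 445 CPM against 38.9, 102 and 98.1 (log2 difference 2.63 ± 0.29, edgeR adjusted p = 2.5e-16), with UMIs in 19 cells. A single cell held 48.1, 64.3 and 94.4% of its UMIs in tumours 1, 2 and 3, and without that cell it stood at 269, 316 and 32.4 CPM, lower than microglia-gated cells in tumour 3. Neural-marker cells had 263, 411 and 147 CPM. Plac8, a myeloid and lymphoid protein, had 10, 3 and 25 UMIs from 4 cells and a log2 difference of 5.81 ± 0.63 (edgeR adjusted p = 3.3e-17), and 65.8% of the UMIs lay in 1 cell. It passed the filter on low counts only through the macrophage-gated sums, where it was high, so this p-value is a description and no support. Without the cell with the most UMIs in each tumour Plac8 stood at 9.06, 0 and 0 CPM, against 1.48, 1.12 and 2.25 in microglia-gated cells. Ifitm3, an interferon-inducible antiviral membrane protein, had 848, 226 and 404 CPM against 170, 89.4 and 102, with UMIs in 23 cells. Without the cell with the most UMIs in each tumour it stood at 484, 42.1 and 75.5 CPM, lower than microglia-gated cells in tumours 2 and 3. With each cell at 500 UMIs, Ifitm3 and the galectin Lgals3 were the 2 higher genes of 4 monocyte genes that could be tested, with log2 differences of 1.68 (edgeR adjusted p = 0.0097) and 1.78 (0.029). Crip1, a LIM protein, had a log2 difference of 1.90 in the full sums and 0.70 at 500 UMIs (edgeR adjusted p = 0.45), and without the top cell of each tumour it stood at 97.7, 189 and 97.1 CPM, lower than the 135 and 204 CPM of microglia-gated cells in tumours 1 and 3. Ly6c2 had 4, 7 and 0 UMIs against 0, 1 and 3 in the far larger microglia-gated sums, too few to test. Its 95% counting intervals in the macrophage-gated sums were 9.62 to 90.4, 48.9 to 250 and 0 to 30.4 CPM. Itga4, an integrin subunit of recruited monocytes, had 8, 0 and 14 UMIs and a log2 difference of 1.82 ± 0.55 (edgeR adjusted p = 0.014), which did not pass by DESeq2 (adjusted p = 0.13) or without tumour 1 or tumour 3 (1.23 and 1.77).

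Class II genes were higher through 6 cells of tumours 1 and 3. Of 8 genes tested, 4 were higher and none lower, with a median log2 difference of 2.08. H2-Aa, the alpha chain of I-A whose promoter is printed above, had 179, 0 and 325 UMIs, or 1581, 0 and 2676 CPM, against 2.81, 0.898 and 253 CPM (log2 difference 5.45 ± 0.44, edgeR adjusted p = 3.1e-32). Tumour 2 had no UMI of H2-Aa, H2-Ab1, H2-Eb1 or Cd74 among its macrophage-gated cells, so the direction was not shared by all tumours. The 6 class II cells held 502 of the 504 UMIs of H2-Aa, and in typical cells under 3000 UMIs Cd74 stood at 47.6, 0 and 373 CPM, against 34.5, 94.7 and 31.3 CPM in microglia-gated cells under 3000 UMIs. The 373 CPM rest on 8 UMIs in 3 cells, and without tumour 1 Cd74 did not pass in the full sums (log2 difference 1.46). H2-Eb1, the beta chain of I-E, had 147, 0 and 333 UMIs from 7 cells, with 63.8% of them in 1 cell. DESeq2 called none of the 8 genes (3 with an unadjusted p under 0.05), edgeR without the tumour block none, and edgeR without tumour 3 called 2 of 7, whereas thinning to 500 UMIs kept H2-Aa, H2-Ab1 and Cd74 higher, with log2 differences of 2.74, 2.03 and 2.53. Microglia-gated cells of tumour 3 also had the most H2-Aa of the 3 tumours, at 253 CPM.

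Beyond these lists, Id3, a repressor of differentiation, had 283, 486 and 1062 CPM against 129, 79.7 and 200, with UMIs in 32 cells and a log2 difference of 1.82 ± 0.29 (edgeR adjusted p = 4.5e-08) that was 1.81 at 500 UMIs. In tumour 3, 121 of its 129 UMIs lay in the cell of 64948 UMIs, and without the cell with the most UMIs in each tumour Id3 stood at 163, 324 and 142 CPM, lower than microglia-gated cells in tumour 3. Lgals1, a galectin, had 971, 243 and 124 CPM against 86.4, 60.4 and 94.0 (log2 difference 1.90 ± 0.32, edgeR adjusted p = 4.1e-07), with 72.7% of its UMIs in 1 cell, and without the top cell of each tumour it stood at 92.6, 196 and 54.0 CPM. Without the cells poor in immune genes the adjusted p of Lgals1 was 0.33 in edgeR.

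**Figure D4:**
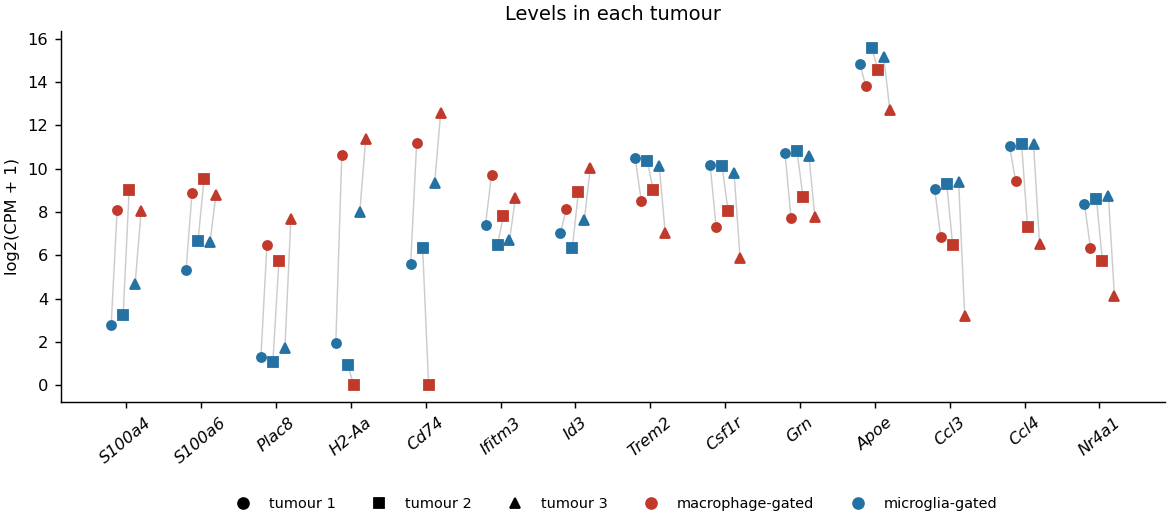
Levels as log2(CPM + 1) of 14 genes in the sums of macrophage-gated (red) and microglia-gated (blue) cells, with a grey line joining the 2 sums of a tumour. S100a4, S100a6, Plac8, Ifitm3 and Id3 are higher and Trem2 to Nr4a1 lower in the red points of all 3 tumours, which for Plac8 rests on 4 cells, while H2-Aa and Cd74 are at 0 in tumour 2.

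Microglia genes that took no part in the rule were lower. Of 25 tested, 23 were lower and none higher, with a median log2 difference of -2.56. At 500 UMIs per cell 6 of 16 were lower and none higher, and without the tumour block 15 of 25 were lower. Trem2 (chr17:48346401-48354147) had 362, 521 and 132 CPM against 1420, 1317 and 1118, with no overlap, and its log2 difference was -2.33 ± 0.31 (edgeR adjusted p = 1.0e-11), and -1.05 at 500 UMIs (edgeR adjusted p = 0.0041). Csf1r had 159, 260 and 57.6 CPM against 1153, 1109 and 887, and its log2 difference of -3.14 was -2.02 at 500 UMIs (edgeR adjusted p = 3.4e-05).

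Transcripts of the microglia identity programme were at or near the limit of these shallow sums. Sall1, a transcription factor of microglia identity, had 2, 0 and 1 UMIs against 649, 305 and 108 (log2 difference -2.95 ± 0.69, edgeR adjusted p = 0.00055), and without the cells poor in immune genes it did not pass (edgeR adjusted p = 0.093). Gpr34, a lysophospholipid receptor, had 15, 2 and 1 UMIs and a log2 difference of -2.79 ± 0.39, with an edgeR adjusted p of 0.11 at 500 UMIs. The nucleotide receptors P2ry6 and P2ry13 had no UMI in the 93 cells and were at least 11.6-fold and 7.60-fold lower, taking 3 counts over all members as the floor. The set of 5 cells with immune genes under 2000 CPM holds 36.3% of the UMIs behind this floor, so the bounds would be smaller without it. By the same floor the integrin Itga5 was at least 8.83-fold lower, Csf3r at least 6.36-fold and Lrrc3 at least 5.74-fold. Of the 755 lower genes, 55 had no UMI in the members and passed the filter on low counts only through the microglia-gated sums, where they were high. Their fitted differences depend on the prior count and are not printed.

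Genes of phagocytosis, lipid handling and the lysosome were mostly lower. Of 26 tested, 20 were lower and 1, Lgals1, was higher, with a median log2 difference of -1.72, and 8 of 17 were lower at 500 UMIs and 13 of 26 without the cells poor in immune genes. Grn (progranulin, a lysosomal regulator) had 212, 417 and 214 CPM against 1715, 1804 and 1520, with UMIs in 42 cells, and its log2 difference of -2.90 ± 0.31 was -1.92 at 500 UMIs (edgeR adjusted p = 1.1e-06). Lpl, a lipase of damage-responsive microglia, had 61.8, 0 and 16.5 CPM against 463, 352 and 259 (log2 difference -3.85 ± 0.43, edgeR adjusted p = 2.8e-16). Mertk, a receptor that binds apoptotic cells, had 1 UMI in each tumour against 1036, 720 and 341. Apoe had 14437, 24320 and 6687 CPM against 29162, 48669 and 36211, a log2 difference of -1.72 ± 0.34 that was -0.57 at 500 UMIs (edgeR adjusted p = 0.091). The difference of Apoe was 0.019 against microglia-gated cells with fewer than 2 macrophage genes, in a fit of tumours 1 and 2. It also did not pass without tumour 1 or without tumour 3, at -2.09 and -1.36.

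Chemokines and cytokines followed the same direction, with 15 of 25 tested genes lower, none higher and a median log2 difference of -1.75, but 3 of 11 were lower at 500 UMIs and 9 of 25 without the cells poor in immune genes. Ccl3 and Ccl4, chemokines that microglia release when activated, lie close together on chromosome 11. Ccl3 had 13, 5 and 1 UMIs, or 115, 86.8 and 8.24 CPM, against 525, 628 and 660 CPM (log2 difference -3.46 ± 0.37, edgeR adjusted p = 1.5e-17). Ccl4 had 698, 156 and 90.6 CPM against 2091, 2261 and 2244. Both held at 500 UMIs, with log2 differences of -2.11 and -1.51. In cells under 3000 UMIs of tumours 1 and 3, however, the difference of Ccl4 was -0.10 and did not pass. In typical cells under 3000 UMIs Ccl4 stood at 1688, 201 and 327 CPM against 933, 1109 and 1363 in microglia-gated cells under 3000 UMIs, so it was higher in tumour 1. Osm, a cytokine of the interleukin-6 family, had 1 UMI in the 93 cells against 361, 260 and 189.

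Among complement and Fc receptor genes, 8 of 13 tested were lower and 1, the complement regulator Cfp, was higher with 10 UMIs from 4 cells. At 500 UMIs 0 of 3 were called, without the cells poor in immune genes 5 of 12 were lower, and without tumour 3 Cfp was no longer called. Itgam, the alpha chain of CD11b, had 3 UMIs in each tumour against 2474, 1086 and 759 (log2 difference -3.49 ± 0.43, edgeR adjusted p = 2.1e-13), and at 500 UMIs its edgeR adjusted p was 0.067. Of adhesion genes and chemokine receptors, 6 of 14 were lower and Itga4 was higher, and Icam1, an adhesion ligand, had 35.3, 34.7 and 8.24 CPM against 339, 358 and 121. Of 24 tested macrophage transcription factors, 18 were lower and none higher, with a median log2 difference of -1.76, and 9 were lower without the tumour block, 11 without the cells poor in immune genes and 4 of 12 at 500 UMIs. Nr4a1, an immediate early nuclear receptor, had a log2 difference of -3.21 ± 0.39, and Runx1, a haematopoietic factor, of -3.21 ± 0.45.

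Immediate early and stress genes, which enzymatic dissociation at 37 °C can induce, were lower for 14 of 22 tested genes and higher for none, with a median log2 difference of -1.18. Atf3, a stress-induced factor, had 150, 17.4 and 98.8 CPM against 884, 590 and 567, and 4 of 17 genes of the list were lower at 500 UMIs. Without tumour 1 the list had 7 of 22 lower genes, and without the tumour block 5. In cells under 3000 UMIs of tumours 1 and 3 the log2 difference of Atf3 was 0.23. MHC class I genes were lower for B2m, H2-K1 and H2-D1 of 14 tested. The reads of near-identical class I genes may be shared or lost in counting, so their values are uncertain. B2m, the invariant light chain, had 1360, 729 and 1005 CPM against 2929, 2218 and 2949 (log2 difference -1.66 ± 0.29, edgeR adjusted p = 8.7e-07).

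Interferon response genes were lower for 5 of 17 and alternative activation and checkpoint genes for 5 of 10, with none higher in either list. Without tumour 1, 2 or 3 the interferon count was 3, 3 and 2, and it was 1 without the tumour block or without the cells poor in immune genes, while the alternative activation count was 3 without tumour 1 or without the cells poor in immune genes. Of the border macrophage list, 3 of 6 tested genes were lower and 9 of 19 listed genes had no UMI. Without tumour 2 or tumour 3, 1 gene of the list was higher and 2 were lower, and without the cells poor in immune genes 1 of 6 was lower. Mrc1 at 0 UMIs in each tumour has counting intervals up to 32.6, 64.0 and 30.4 CPM, which include the 5.92, 6.96 and 26.2 CPM of microglia-gated cells. A difference in Mrc1 was not detectable at this depth.

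Other lists had few or no calls. Ribosomal genes had 0 of 17 called in edgeR, with 0 at an unadjusted p under 0.05 and 0 by DESeq2, and a median log2 difference of 0.00041. SWI/SNF subunits had 0 of 18 called in edgeR, with 2 at an unadjusted p under 0.05 and 0 by DESeq2. Smarcb1 had 1, 1 and 3 UMIs, or 8.83, 17.4 and 24.7 CPM, against 25.6, 18.0 and 18.3 CPM. Its counting intervals of 0.224 to 49.2, 0.439 to 96.7 and 5.09 to 72.2 CPM include the microglia-gated values, and its log2 difference was -0.51 ± 0.79 (edgeR adjusted p = 0.82). Hypoxia and glycolysis genes had 2 of 14 lower and iron genes 3 of 9, and both lists had 1 lower gene without the cells poor in immune genes. The hypoxia count was 1 without tumour 1 or tumour 3 and 0 without the tumour block, and the iron count was 2 without tumour 3. Cell cycle genes had 2 of 21 higher, Ube2c and Hmgb2, but 1 without tumour 1, 0 without tumour 3 and 0 of 20 without the cells poor in immune genes. Of the 93 cells, 12 had a UMI of Mki67 or Top2a.

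**Figure D5:**
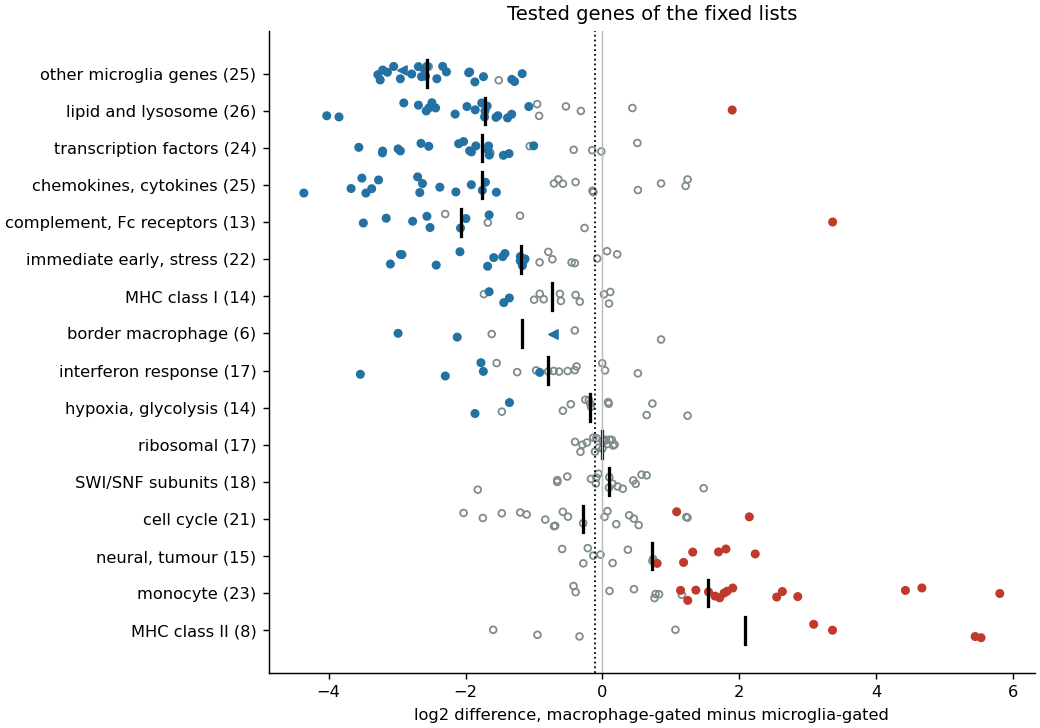
Log2 difference (macrophage-gated minus microglia-gated) of each tested gene in 16 lists, with the number tested in brackets, filled red or blue where higher or lower at an edgeR adjusted p of 0.05 and open otherwise. Triangles stand for genes with no UMI in the members, drawn at their bound, the black bars are list medians with such genes at their bound, and the dotted line is the median of all tested genes. The microglia list lies to the left at -2.56 and the monocyte list to the right at 1.55.

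Genes of the neural and tumour list were higher for 6 of 15 tested and lower for none. None of the 15 genes was at 0 in the members, and their summed level was 4980, 2812 and 2989 CPM in macrophage-gated cells against 1800, 2033 and 1347 in microglia-gated cells, with 29.9% of the UMIs in 1 cell. With each cell at 500 UMIs the list took 0.236, 0.345 and 0.115% of UMIs against 0.161, 0.168 and 0.0963%, and 0.760, 0.700 and 0.463% in neural-marker cells. At 500 UMIs, 0 of 4 testable genes of the list were called in edgeR, and without the cells poor in immune genes, or without tumour 1, 1 of 15 was. Sox2 had 459, 86.8 and 667 CPM against 63.3, 52.8 and 88.0, with 58.0% of its UMIs in 1 cell. The part of neural RNA in the other differences was not tested.

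Markers of other blood and vessel cells were mostly at 0. Of 11 T cell genes 8 had no UMI in the members, as had 9 of 13 neutrophil genes, 8 of 9 NK cell genes, 6 of 9 B cell genes, 7 of 9 mast cell genes and 6 of 10 endothelial genes. The summed levels ranged over the tumours from 0 to 124 CPM for T cell genes, against 3.14 to 8.99 in microglia-gated cells. They were 0 to 243 against 55.9 to 80.1 for neutrophil genes, 0 to 141 against 0.225 to 1.92 for NK cell genes and 16.5 to 53.0 against 16.6 to 66.9 for endothelial genes. The whole NK cell value was Klrd1, on both the NK and the dendritic list, which the 2 deeper class II cells carried with 16 and 5 UMIs. Haemoglobin Hbb-bs was higher through tumour 2, where 94 UMIs were counted, and 95.8% of its UMIs lay in 1 cell. The part of these cells in the differences above was not tested.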

How the data were processed

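Per the labels and the study's methods, the deposited values are raw UMI counts of genes in barcodes, for which the authors ran Cell Ranger 3.1.0 against mm10. Every barcode held at least 500 UMIs, and 31011 of 31053 gene IDs were found in GENCODE M21, which gave the positions (GRCm38).

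Counts of gated cells were summed per tumour, since cells are not replicates. The tests used edgeR 4.0.16 (R 4.3.3; quasi-likelihood, TMM, filterByExpr, Benjamini-Hochberg over all tested genes outside the 16 gate genes, threshold 0.05), with the tumour as block because both sums of a tumour come from the same animal. CPM are counts per 1000000 UMIs of a sum. DESeq2 1.42.0, other gates, depths and doublet filters were alternatives. The members, gene lists and tests were chosen with earlier results of these data known, and the thinning to 500 UMIs, the upper limit of 3000 UMIs and the limit of 2000 CPM after seeing the data. Scrublet (scanpy 1.11.5) at its own threshold found only 0, 1 and 1 doublets, against 705, 336 and 165 cells marked at a fixed rate. Whether its scores find doublets in these data was not tested. An alternative removed the top-scoring cells at 0.8% for every 1000 barcodes, and otherwise doublets stayed in. A tumour entered a test only with 20 or more cells in both classes. The p-values rest on at most 3 animals, and a few cells dominate the sums.

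Genes were named by a rule: 16 whatever their result, up to 4 per list and 6 in each direction with adjusted p under 0.05, the same direction in each tumour and at least 10 UMIs in the higher class. H2-Eb1, Chil3, Lgals3, Pf4, Cfp, Sox2, Col3a1, Ccr7, Flt3, Klrd1, Hbb-bs, Ube2c, Mki67 and Top2a were named after their values had been seen. The edgeR script was tested on simulated counts. Some genes of the rule and lists are not reported here. Free RNA was not corrected for.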

Additional observations from a re-analysis of the deposited data

How the results depend on the processing

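The number of genes called between macrophage-gated and microglia-gated cells, 991, became 403 with DESeq2, 153 with microglia-gated cells matched for depth, 12 against microglia-gated cells with fewer than 2 macrophage genes, 369 with immune genes at 2000 CPM or more, 87 with every gated cell thinned to 500 UMIs and 35 in cells under 3000 UMIs. Fewer genes could be tested in the last 2 (779 and 1124) and in the matched set (1716), and the cause of the lower counts was not tested. Without the replicate block, that is without the pairing by tumour, 431 genes were called. Leaving out 1 tumour at a time gave 504 to 784 genes, with 504 without tumour 1 and 597 without tumour 3. RLE size factors, no filter, removal of doublets, a mitochondrial limit of 10% and removal of other immune cells gave 674 to 977 genes. Tumour 2 had 18 members after removal of doublets, 19 at the limit of 10% and 16 under 3000 UMIs. These fits left it out and rest on tumours 1 and 3. The fit against cells with fewer than 2 macrophage genes left out tumour 3, with 19 microglia-gated cells. Such changes cannot be told apart from the loss of a tumour. The mean macrophage-gated share of immune-gated cells, 4.37%, became 1.20% in cells of at least 3000 UMIs and 7.78% in cells under 3000 UMIs, and 2.81 to 5.49% without 1 tumour. Signs reversed for Apoe (0.019), Stab1 (0.14), Hif1a (0.0054) and Sox11 (-0.30) against microglia-gated cells with fewer than 2 macrophage genes, and for Atf3 (0.23) and Lgals1 (-0.0021) in cells under 3000 UMIs. Over named genes and alternatives, 733 values kept their direction and call, 215 kept the direction without passing and these 6 reversed. Requiring Ms4a7, Ms4a6c or Ccr2, 3 macrophage genes, 3000 UMIs or gating after thinning to 2000 UMIs left fewer than 20 members in 2 or more tumours, so no test was run.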
